A study of Rattus norvegicus with 6 samples.

Results

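The miR-23/27/24 clusters are a pair of related microRNA loci, and their main products on the array are rno-miR-23a-3p, rno-miR-23b-3p, rno-miR-27a-3p, rno-miR-27b-3p and rno-miR-24-3p. These 5 microRNAs were taken by name from the 758 rat microRNAs of the array, with no use of their measured values. They were followed in plasma of 3 male Sprague-Dawley rats aged 10 weeks that had received no treatment, from which blood was drawn at the abdominal aorta (arterial plasma) and the postcava (venous plasma). Plasma was kept on EDTA, spun in 2 steps and filtered, and RNA of each of the 6 samples was labelled with Cy3 and hybridized to an array of its own. A sample number stands for a rat, and all values below are paired by rat. The question of the comparison was whether a microRNA circulates at a different level on the arterial and the venous side.

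MicroRNAs are short RNAs that guide the silencing complex to messenger RNAs, and the bases near the 5′ end, called the seed, choose most of the targets. Each of the clusters is transcribed as a single precursor RNA that holds a miR-23, a miR-27 and a miR-24 hairpin. The miR-23a cluster is known for roles in blood cell development and muscle mass, and the miR-23b cluster lies in the intron of a peptidase gene. Both clusters are studied in endothelial cells, where miR-23 and miR-27 act on vessel sprouting and miR-24 restrains it. In plasma and serum work, miR-23a-3p is widely used as a steady partner of the red cell microRNA miR-451, and the ratio of the pair serves to detect haemolysis.

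The mature sequences are shown because the members fall into seed families, and because the paralogs differ at a single base that a probe would have to tell apart. They are given 5′ to 3′ from RefSeq (GRCr8), where all 5 names matched, with the seed (bases 2 to 8) in capitals.
rno-miR-23a-3p: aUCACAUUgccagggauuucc
rno-miR-23b-3p: aUCACAUUgccagggauuacc
rno-miR-27a-3p: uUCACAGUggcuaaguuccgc
rno-miR-27b-3p: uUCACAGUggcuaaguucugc
rno-miR-24-3p: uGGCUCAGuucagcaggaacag
With positions counted from 1 at the 5′ end, miR-23b-3p differs from miR-23a-3p by U19A, and miR-27b-3p differs from miR-27a-3p by C19U. Both differences lie outside the seed, so the paralogs of a pair share it. The seeds of miR-23 and miR-27 differ from each other by U7G, and that of miR-24-3p is unlike both. No further microRNA among the 685 array names that matched a RefSeq sequence carries any of these 3 seeds.

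In GRCr8 the miR-23a cluster lies on the minus strand of chromosome 19, where the mature miR-23a-3p occupies chr19:40859778-40859798 and miR-27a-3p occupies chr19:40859614-40859634. Its 3 hairpins span 389 bases and overlap no other RefSeq gene. The miR-23b cluster lies on the minus strand of chromosome 17, with miR-23b-3p at chr17:1819405-1819425 and miR-27b-3p at chr17:1819163-1819183. Its 3 hairpins span 814 bases within the span of Aopep, an aminopeptidase gene, and the Mir24-1 hairpin also overlaps Fancc and Mir3074. The same mature miR-24-3p is encoded in both, as Mir24-1 at chr17:1818672-1818693 and as Mir24-2 at chr19:40859481-40859502, so its array signal cannot be assigned to a cluster.

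On each array every member was read by 2 probes with 8 spots each. Feature Extraction, the scanner software, called all 5 members detected on all 6 arrays, where 126 of the 758 microRNAs (16.6%) were detected on every array and 557 on none. Of the 480 member spots, 469 were well above background, 52 (10.8%) were flagged as outliers and left out, and 0 were saturated. The spots not called well above background belonged mainly to miR-27b-3p, for which 9 of 16 spots were well above background in the venous sample of rat 3. Between 137 and 175 microRNAs were detected per array. Microarray intensity depends on the probe, so the levels of different microRNAs are not set against each other here, and precision is limited by having 6 arrays. Plasma, here spun and filtered, is a bulk sample. Release of a microRNA by fewer cells of a type and less release per cell cannot be told apart in it.

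Before any normalization between arrays, each of the 5 members was brighter in arterial than in venous plasma in rats 1 and 3 and dimmer in rat 2. The processed intensity, which is the background-subtracted brightness on a linear scale, of miR-23a-3p was 315, 516 and 374 in arterial plasma (rats 1, 2 and 3) and 213, 543 and 168 in venous plasma. That of miR-23b-3p, its paralog from the other cluster, was 38.6, 73.7 and 43.8 in arterial and 24.7, 75.9 and 20.1 in venous plasma. In both, the venous samples held the lowest and the highest value, and the arterial and venous groups overlapped.

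The processed intensity of miR-27a-3p, a microRNA studied in fat and blood cell differentiation, was 92.8, 138.5 and 110.2 in arterial and 64.9, 180.8 and 51.1 in venous plasma. That of miR-27b-3p was 27.9, 41.1 and 24.8 in arterial and 19.0, 50.7 and 11.9 in venous plasma. The venous sample of rat 2 was again the brightest and that of rat 3 the dimmest. The processed intensity of miR-24-3p, which both clusters supply, was 224.5, 299.3 and 227.4 in arterial and 151.5, 376.0 and 121.9 in venous plasma. Its brightest and dimmest arrays were the same as those of the miR-27 paralogs, and the arterial values of all 3 lay within the range of the venous ones.

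**Figure D1:**
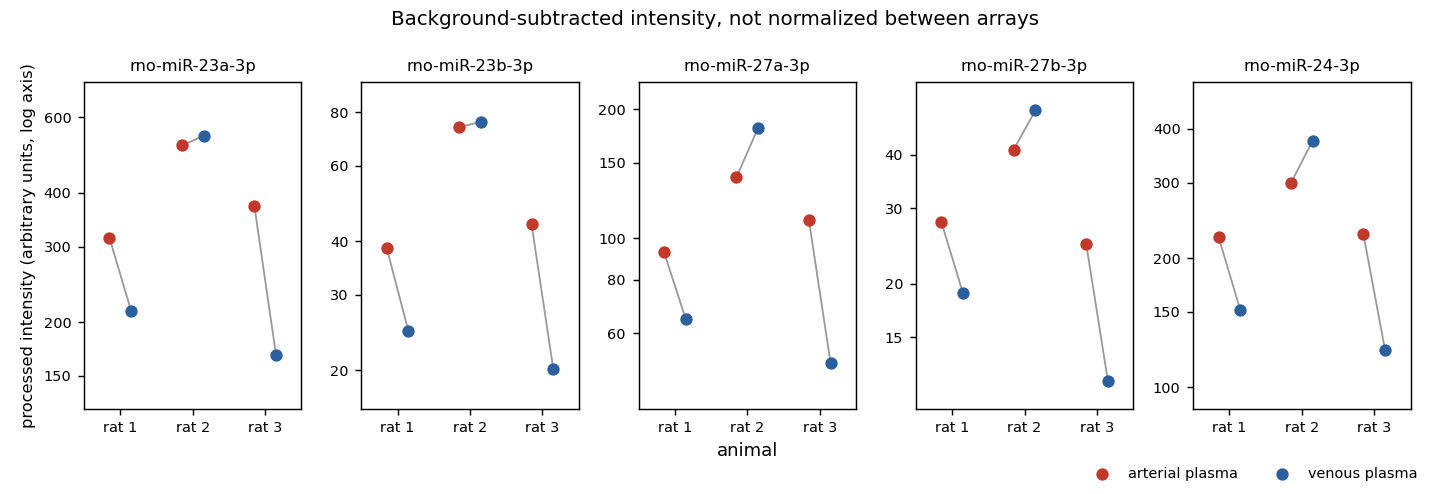
Processed intensity of each member without normalization between arrays, on a log-spaced y axis (arbitrary units), for rats 1, 2 and 3 on the x axis, with 1 point per array and a line joining the arterial and venous sample of a rat. In all 5 panels the arterial point lies above the venous point in rats 1 and 3 and below it in rat 2.

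In raw intensity the venous samples had the wider spread for every member, whereas after the quantile normalization given further on the arterial SD was the wider for each member except miR-27b-3p (for miR-23a-3p, 0.593 in arterial and 0.416 in venous plasma on the log2 scale). Mean processed intensity of miR-23a-3p was 402 ± 104 in arterial and 308 ± 205 in venous plasma (SD, n = 3 each), and that of miR-24-3p was 250.4 ± 42.4 (SD, n = 3) and 216.4 ± 139 (SD, n = 3). The means of miR-27a-3p were 113.8 ± 23.1 (SD, n = 3) and 98.9 ± 71.2 (SD, n = 3). For the b paralogs the arterial and venous means were 52.0 ± 18.9 and 40.2 ± 31.0 (SD, n = 3 each) for miR-23b-3p, and 31.3 ± 8.64 and 27.2 ± 20.7 (SD, n = 3 each) for miR-27b-3p. From the dimmest to the brightest array, the members ranged over 3.08-fold (miR-24-3p) to 4.26-fold (miR-27b-3p).

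These movements went with the brightness of the whole array. Over the 126 microRNAs detected on every array, processed intensity had a median of 35.3, 41.8 and 30.1 in arterial plasma (rats 1, 2 and 3) and 21.8, 52.9 and 17.2 in venous plasma. All 5 members had the sign pattern described, and so did 86 of the 126 (68.3%). All 5 also had their lowest value in the venous sample of rat 3 and their highest in that of rat 2, a pattern held by 46 of the 126 (36.5%).

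Set against that shift rat by rat, the median of the members kept close to it in rats 1 and 2. The arterial minus venous difference in raw log2 intensity had a median over the members of 0.57 (range 0.52 to 0.64) in rat 1, against 0.63 over all 126. In rat 2 it was -0.30 (range -0.38 to -0.043), against -0.29. Within rat 2 the miR-23 paralogs were nearly level between arterial and venous plasma, at -0.074 for miR-23a-3p and -0.043 for miR-23b-3p, while miR-27a-3p was at -0.38, miR-27b-3p at -0.30 and miR-24-3p at -0.33. In rat 3 the member median was 1.11 (range 0.90 to 1.16), against 0.84, so that all 5 stood above the median of the detected microRNAs there.

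**Figure D2:**
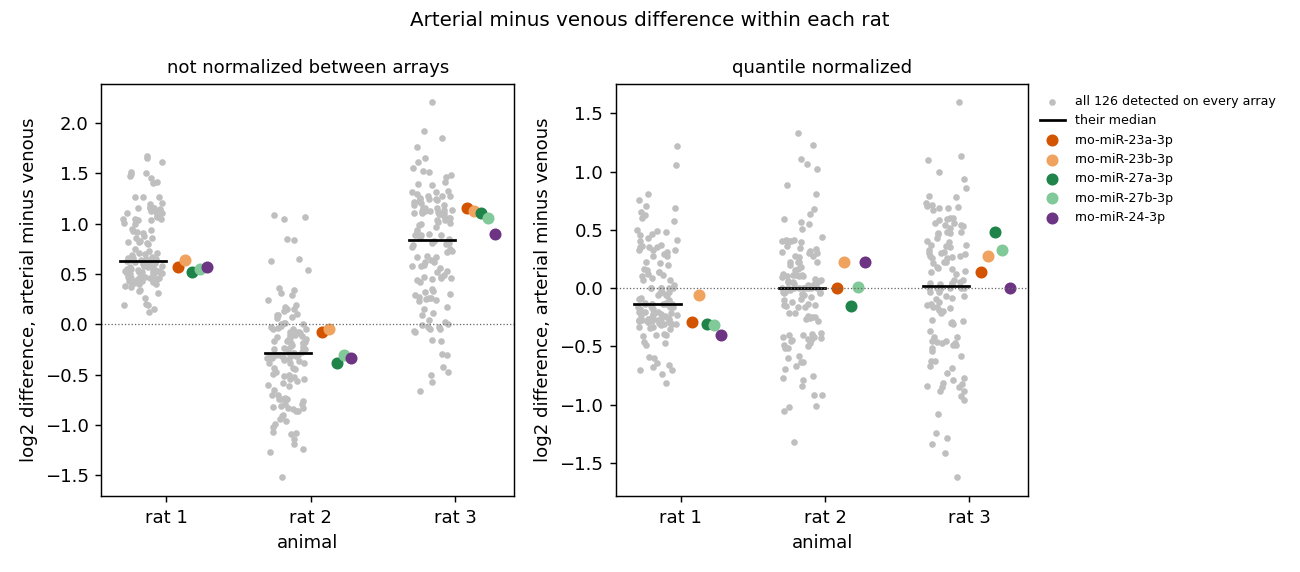
Arterial minus venous difference in log2 intensity of each member in rats 1, 2 and 3, without normalization between arrays and after quantile normalization, with all 126 microRNAs detected on every array as grey points and their median as a bar. Without normalization the member median over the rats is 0.44 against 0.40 for the detected microRNAs, and after normalization it is 0.0055.

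After quantile normalization, which gives every array the same distribution of intensities and was the procedure of the study, no member passed the test for a difference between arterial and venous plasma. Normalized log2 intensity of miR-23a-3p was 7.71, 8.84 and 8.61 in arterial plasma (rats 1, 2 and 3) and 8.01, 8.84 and 8.47 in venous plasma. The arterial values were lower in rat 1, equal in rat 2 and higher in rat 3, and the groups overlapped. The mean difference was -0.051 on the log2 scale (SE 0.121, 95% confidence interval -0.53 to 0.43 in limma, adjusted p = 1).

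Normalized log2 intensity of miR-23b-3p was 5.14, 5.94 and 5.61 in arterial and 5.20, 5.72 and 5.34 in venous plasma. It was higher in the arterial sample of rats 2 and 3 and a little lower in that of rat 1, with overlapping groups. Its mean difference of 0.15 (SE 0.0993, interval -0.25 to 0.54, limma adjusted p = 1) was the highest of the 5. Without rat 1 it was 0.25 and passed the unadjusted cutoff of 0.025 in limma. That value rests on rats 2 and 3 alone. Of 105 member differences over the 21 alternatives described at the end, it was the only 1 to pass.

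Normalized log2 intensity of miR-27a-3p was 6.25, 6.88 and 7.24 in arterial and 6.56, 7.03 and 6.76 in venous plasma. Rats 1 and 2 had the lower value in arterial plasma and rat 3 the higher, and the mean difference was 0.0055 (SE 0.231, interval -0.91 to 0.92, limma adjusted p = 1). For miR-27b-3p the values were 4.59, 5.00 and 4.77 in arterial and 4.91, 4.99 and 4.44 in venous plasma. Its difference was negative in rat 1, near 0 in rat 2 and positive in rat 3, with a mean of 0.0072 (SE 0.177, interval -0.69 to 0.71, limma adjusted p = 1). The arterial and venous values of both miR-27 paralogs overlapped.

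Normalized log2 intensity of miR-24-3p was 7.18, 8.23 and 8.01 in arterial and 7.59, 8.01 and 8.01 in venous plasma. The arterial sample was lower in rat 1, higher in rat 2 and equal in rat 3. The mean difference was -0.061 (SE 0.175, interval -0.75 to 0.63, limma adjusted p = 1). The differences of miR-23a-3p and miR-24-3p changed sign without normalization, to 0.55 and 0.38. Equal values arise because quantile normalization gives a microRNA that holds the same rank on a pair of arrays the same value.

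**Figure D3:**
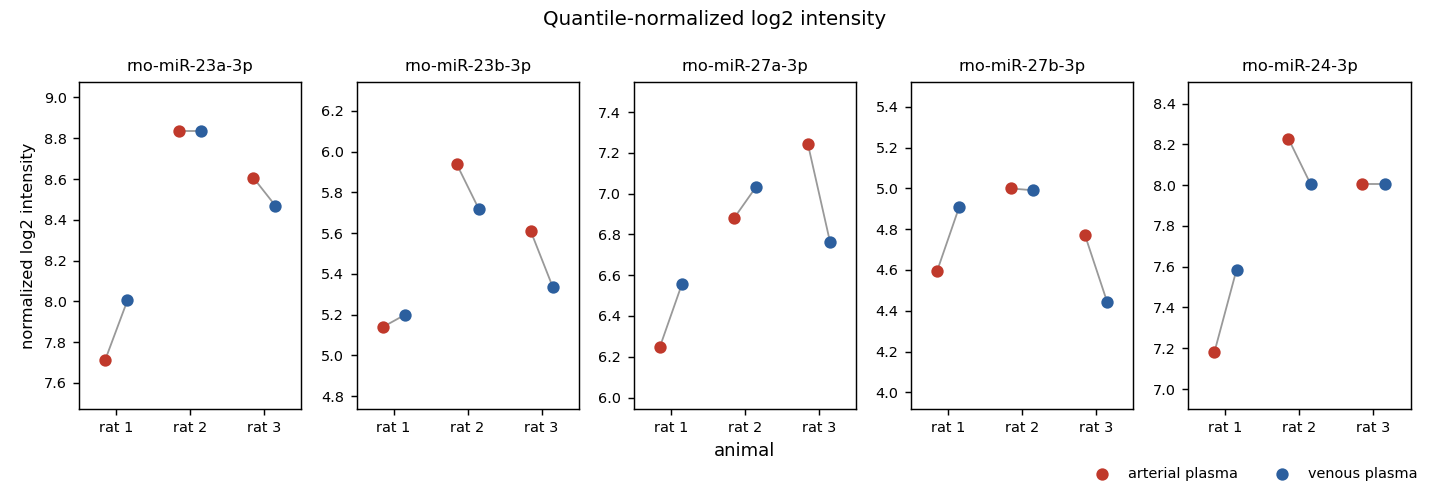
Normalized log2 intensity of each member in rats 1, 2 and 3, with 1 point per array and a line joining the arterial and venous sample of a rat and y axes of equal length in log2 units. The lines run in different directions between rats in each panel, and both points of rat 1 are the lowest in 4 of 5 panels.

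With limma 0 of the 5 members passed the unadjusted cutoff of 0.025 that the study used, 0 had an unadjusted p under 0.05 and 0 passed the cutoff in the methods' t-test. Over all 758 microRNAs limma called 6 at that cutoff (0.792%), of which 4 were higher in arterial plasma (0.528%) and 2 in venous plasma (0.264%), and 0 (0%) at an adjusted p of 0.05. When the model was fitted to the 126 detected microRNAs alone, it called 3 (2.38%) and again 0 members. In that fit the intervals were -0.52 to 0.42 for miR-23a-3p, -0.31 to 0.60 for miR-23b-3p, -0.56 to 0.58 for miR-27a-3p, -0.51 to 0.52 for miR-27b-3p and -0.57 to 0.45 for miR-24-3p. With 3 rats the data do not exclude a true difference anywhere within these intervals. The exact permutation test within rats, two-sided, gave p = 1 for miR-23a-3p, miR-27a-3p and miR-24-3p, p = 0.5 for miR-23b-3p and p = 0.75 for miR-27b-3p, and 3 pairs cannot give a p below 0.25. None of the 5 members had a difference of the same sign in all 3 rats, against 25 of the 126 detected microRNAs (19.8%).

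The arrays of rats 1 and 2 shared 1 slide, and those of rat 3 lay on a separate slide. Within the slide of rats 1 and 2 the mean normalized differences were -0.15 for miR-23a-3p, 0.080 for miR-23b-3p, -0.23 for miR-27a-3p, -0.15 for miR-27b-3p and -0.091 for miR-24-3p. The slide of rat 3 gave 0.14, 0.28, 0.48, 0.33 and 0 in the same order, from 1 pair. With the slide as a block 0 members were called. The mean differences were those given above, as they must be when each slide holds both samples of its rats.

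After normalization both samples of rat 1 had the lowest normalized values for miR-23a-3p, miR-23b-3p, miR-27a-3p and miR-24-3p, and not for miR-27b-3p. The same held for 28 of the 126 detected microRNAs (22.2%). The mean of the arterial and venous log2 values of miR-23a-3p was 7.86 in rat 1, 8.84 in rat 2 and 8.54 in rat 3, and that of miR-24-3p was 7.38, 8.12 and 8.01. For miR-23b-3p it was 5.17, 5.83 and 5.47. The means of miR-27a-3p in rats 2 and 3 lay close together, at 6.96 and 7.004, above 6.40 in rat 1. For miR-27b-3p the order was another, with 4.75 in rat 1, 5.00 in rat 2 and 4.60 in rat 3. Rat and slide cannot be told apart for rat 3.

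Among the 126 detected microRNAs the rank of the members by spread depended on the normalization. Ranked from the smallest SD of normalized log2 intensity over the 6 arrays, miR-27b-3p came 19 (SD 0.228), miR-23b-3p 39 (0.317), miR-27a-3p 49 (0.353), miR-24-3p 56 (0.383) and miR-23a-3p 70 (0.459). The median SD of the 126 was 0.428. On raw values the order was another, with miR-24-3p at rank 37, miR-27a-3p at 61, miR-23a-3p at 63, miR-27b-3p at 78 and miR-23b-3p at 86. In the SD of the normalized arterial minus venous difference over the rats, miR-23b-3p ranked 24 (0.180) and miR-23a-3p 31 (0.219), while miR-27a-3p ranked 78 (0.420), against a median of 0.372. For miR-23a-3p, the usual steady partner in haemolysis ratios, the SD over the arrays lay above the median after normalization and just below it on raw values (0.682 against 0.688).

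On raw values the a and b paralogs moved together on the arrays. Their ratio within an array needs no normalization between arrays, and only its change from array to array is read here. The ratio of miR-23a-3p to miR-23b-3p was 8.15, 7.01 and 8.54 in arterial plasma (rats 1, 2 and 3) and 8.61, 7.16 and 8.33 in venous plasma. It was lower in both samples of rat 2 than in the 4 others, and the arterial and venous sample of a rat lay close together. The mean difference of the log2 ratio, arterial minus venous, was -0.025 ± 0.0571 (SD, n = 3; exact permutation test, two-sided p = 0.75).

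The ratio of miR-27a-3p to miR-27b-3p was 3.32, 3.37 and 4.44 in arterial and 3.41, 3.56 and 4.30 in venous plasma. Here rat 3 stood above rats 1 and 2 in both samples. The mean difference of the log2 ratio was -0.024 ± 0.0648 (SD, n = 3; exact permutation test, two-sided p = 0.75). Neither paralog ratio differed between arterial and venous plasma beyond the spread over rats.

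The agreement of the arterial and venous sample was close beside that of other pairs of microRNAs. The widest arterial minus venous difference of any rat was 0.0785 on the log2 scale for the miR-23 paralogs and 0.0803 for the miR-27 paralogs, and the median over all 7875 pairs of the 126 detected microRNAs was 0.829. Of those pairs, 0.292% and 0.305%, respectively, had a difference as small or smaller. Between rats the log2 ratio moved more, from 2.82 in rat 2 to 3.08 in rat 3 for the miR-23 paralogs and from 1.75 in rat 1 to 2.13 in rat 3 for the miR-27 paralogs. Probes for sequences that differ by a single base may each bind both microRNAs, and the part of such binding in the steady ratios was not tested.

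Across the 2 seed families and miR-24-3p the ratios of raw values were steady as well. Over the 10 pairs of members the SD of the log2 ratio across the 6 arrays ran from 0.101 (miR-23a-3p to miR-27a-3p) to 0.227 (miR-23b-3p to miR-24-3p), with a median of 0.181. The median over all pairs of the 126 was 0.631, and the member pairs lay among the lowest 0.444 to 4.90% of them. Of the pairs from 1 cluster, miR-23a-3p to miR-27a-3p had the smallest SD, and miR-23b-3p to miR-27b-3p, both from chromosome 17, had 0.195. The paralog pairs, from different clusters, had 0.131 for miR-23 and 0.187 for miR-27. Whether membership of a cluster orders the pairs was not tested. On normalized values, for which the share of all pairs was not taken, the SD of miR-23a-3p to miR-27a-3p was 0.234. The lowest was that of miR-23a-3p to miR-24-3p, at 0.145, and the highest that of miR-23a-3p to miR-27b-3p, at 0.409. The SD of miR-27b-3p was 0.371 with miR-24-3p, 0.344 with its paralog miR-27a-3p and 0.249 with miR-23b-3p. After normalization the SD was higher in every member pair except miR-23b-3p to miR-24-3p, at 0.204 against 0.227 on raw values. The steadiness described above is therefore that of raw values. In raw values the ratio of miR-23a-3p to miR-24-3p ran from 1.38 to 1.73 over the arrays, and the log2 ratio of miR-27a-3p to miR-24-3p had an SD of 0.102.

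**Figure D4:**
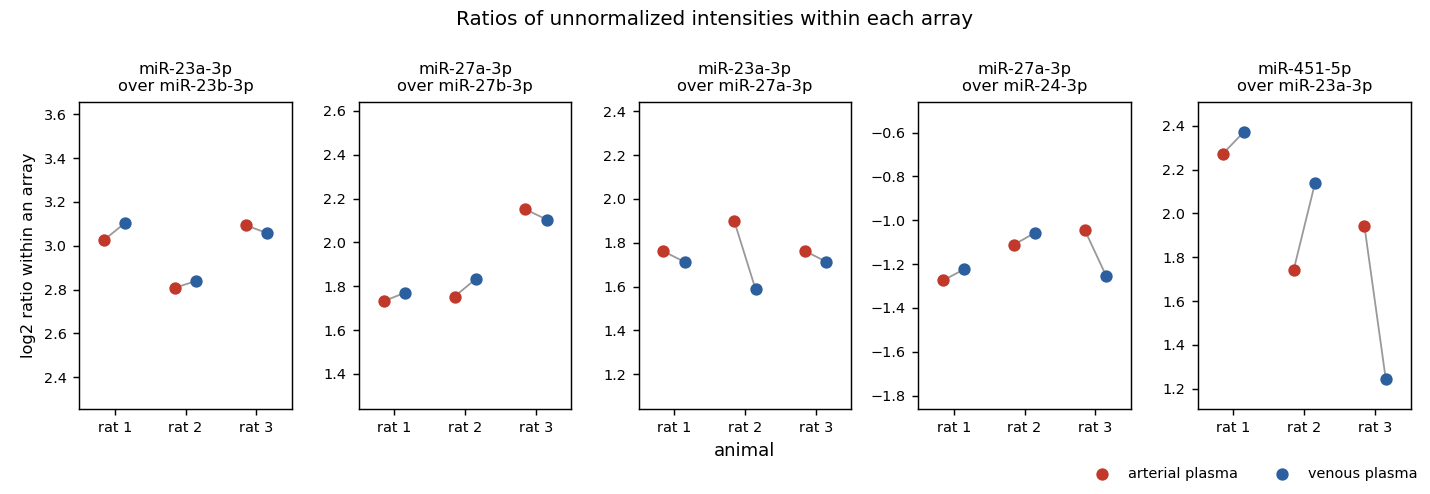
Log2 ratio of processed intensities within an array, in rats 1, 2 and 3, with 1 point per array and the axes on equal length. The panels show the miR-23 paralogs, the miR-27 paralogs, miR-23a-3p over miR-27a-3p, miR-27a-3p over miR-24-3p and miR-451-5p over miR-23a-3p. The arterial and venous points of a rat lie within 0.0803 for the paralog ratios. They lie up to 0.31 apart for miR-23a-3p over miR-27a-3p (rat 2) and up to 0.21 for miR-27a-3p over miR-24-3p (rat 3). For miR-451-5p over miR-23a-3p they lie 0.69 apart in rat 3.

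The quantile normalization applied here changed the miR-23 comparison. On normalized values the log2 ratio of miR-23a-3p to miR-23b-3p was lower in arterial plasma in all 3 rats, by a mean of -0.20 ± 0.0512 (SD, n = 3; exact permutation test, two-sided p = 0.25, the smallest that 3 pairs allow). Without normalization it was lower in rats 1 and 2 and higher in rat 3. In the table of intensities that the authors quantile normalized, the mean difference of the miR-23 paralogs was -0.00094. For the miR-27 paralogs the normalized mean difference was -0.0018 ± 0.158 (SD, n = 3; exact permutation test, two-sided p = 1).

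Both probes of a member gave the same direction in each rat on raw values. The 2 probes of a member had a raw arterial minus venous difference of the same sign in 15 of 15 comparisons, 5 members in 3 rats. Raw signs also follow the brightness of the whole array, with median differences of 0.63, -0.29 and 0.84 over all 126 detected microRNAs. The count therefore does not show a direction particular to the members, and no share over the probes of all microRNAs was taken. The gap between the probes was 0.0022 to 0.309 on the log2 scale, with a median of 0.0944. The coefficient of variation among the spots of a probe had a median of 4.23% and reached 16.9%.

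The opposite arms of the same hairpins were looked for because only they separate the sources of miR-24. The Mir24-1 hairpin releases rno-miR-24-1-5p and the Mir24-2 hairpin rno-miR-24-2-5p, shown here with the seed in capitals.
rno-miR-24-1-5p: gUGCCUACugagcugauaucag
rno-miR-24-2-5p: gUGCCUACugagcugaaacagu
They are identical over the first 16 of 22 bases. Neither was detected on any array, nor were miR-23a-5p, miR-23b-5p, miR-27a-5p and miR-27b-5p. Of the 576 spots for these 6 arms, 1 was well above background, and their processed intensities lay between -2.69 and 1.41. At this signal over background the 5p arms gave no information on which cluster supplied miR-24-3p.

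Several microRNAs from outside the clusters had profiles over the 6 arrays closer to a member than those of the other members. Likeness was measured as the root mean square distance between normalized log2 profiles after centring each on its mean, over 121 other detected microRNAs, and is a description over 6 arrays that all profiles share. The nearest to miR-23a-3p were miR-26a-5p, at a distance of 0.041, and miR-455-3p, at 0.113, followed by its cluster partner miR-24-3p at 0.132, while the median over the others was 0.542. The nearest to miR-23b-3p were miR-30c-5p (0.0876) and miR-126a-3p (0.0957), a microRNA of endothelial cells, with miR-24-3p at 0.186 and miR-23a-3p at 0.192. Placed among the 121 others by distance, its paralog miR-23a-3p ranked 15.

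The nearest to miR-27a-3p were miR-107-3p (0.0626) and miR-142-5p (0.0933), the latter a microRNA of blood cells. The nearest to miR-27b-3p were let-7g-5p (0.0825) and miR-30a-5p (0.117). Its paralog miR-27a-3p lay at 0.314, which ranked 39 when placed among the 121 others by distance. The nearest to miR-24-3p was miR-455-3p (0.0986), with miR-23a-3p at 0.132 and miR-140-3p at 0.134. Of the 5, miR-27b-3p stood farthest from the other members, at 0.227 to 0.373.

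The ratio of miR-451-5p, a red cell microRNA, to miR-23a-3p was examined in each sample because it is read in plasma as a measure of red cell RNA. Processed intensity of miR-451-5p was 1519, 1727 and 1435 in arterial plasma (rats 1, 2 and 3) and 1101, 2389 and 397 in venous plasma. Its log2 ratio to miR-23a-3p was 2.27, 1.74 and 1.94 in arterial and 2.37, 2.14 and 1.25 in venous plasma. The venous sample of rat 3 was the lowest and the groups overlapped. The mean difference was 0.067 ± 0.564 (SD, n = 3; exact permutation test, two-sided p = 1), and the sign differed between rats. These are probe intensities, so the cut-offs used for quantitative PCR do not apply to them.

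Markers of cells that release microRNAs into plasma were summed by list. The sums depend on the probes, so they are read across samples within a list and not between lists. Of 5 red cell microRNAs 4 were detected on every array (miR-144-5p on none), with a summed processed intensity of 2146 to 2478 in arterial and 766 to 3605 in venous plasma. Of 5 platelet and leukocyte microRNAs 4 were detected on every array, with sums of 663 to 781 and 433 to 964. The summed intensity of the 5 members was 698 to 1069 in arterial and 373 to 1227 in venous plasma. It was lowest and highest in venous samples, as were the sums of both blood cell lists. These are raw sums, and the median over the 126 detected microRNAs was likewise lowest and highest in venous samples, at 17.2 and 52.9. The shared pattern is therefore not particular to the members and the blood cell lists.

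Of 2 endothelial microRNAs miR-126a-3p was detected on every array, and the list summed to 38.4 to 65.1 in arterial and 17.6 to 63.9 in venous plasma. Of 3 liver microRNAs 2 were detected on every array (miR-194-5p on none), with sums of 91.3 to 703 and 65.6 to 372. Of 4 muscle microRNAs 1 was detected on every array (miR-1-3p and miR-133a-3p on none), with sums of 19.9 to 40.2 and 14.7 to 26.6. In none of these 5 lists was a microRNA called by limma at the cutoff. The median normalized differences ran from -0.092 to 0.21, beside 0.0055 for the members and -0.0040 over all 126 detected microRNAs. For endothelium and muscle the median is that of 1 microRNA. The blood cell medians cover values of both signs, such as 0.26 for miR-451-5p and -0.57 for miR-486. In the other list miR-223-3p was at 0.028 and miR-150-5p at -0.40. Both miR-486 and miR-150-5p were lower in arterial plasma in all 3 rats, and 25 of the 126 (19.8%) had 1 sign in all rats. The part of these cells in the values of the members was not tested.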

How the data were processed

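The authors deposited the spot intensities of 6 single-colour Agilent Rat miRNA arrays, written by Agilent Feature Extraction (version 11.0.1.1 in the methods, 10.7.3.1 in the file headers), with background subtracted and no normalization between arrays. They also deposited a table of intensities that were quantile normalized in GeneSpring, which served as an alternative. Here outlier-flagged spots (8.72 to 10.4% of an array) were left out, spots were averaged by probe and probes by microRNA, and the resulting 758 microRNA values were quantile normalized between arrays, floored at 1 and put on the log2 scale. The background-subtracted intensities without this step are called raw. Arterial minus venous differences were tested with limma (version 3.58.1, R 4.3.3), with the rat as a block, two-sided, at the cutoff of 0.025 of the methods and at 0.05 after Benjamini-Hochberg adjustment. Samples were paired because each number is 1 rat. Deviations from the group means correlated at 0.80, 0.69 and 0.64 between the samples of rats 1, 2 and 3, across 126 microRNAs. In simulated data for this comparison, with changes of 1 to 3 in log2, limma recovered 46 of 100 changed microRNAs at the cutoff over 758, where many lay at the floor of 1, and 20 of 20 over the 126. The named microRNAs are the members, their opposite arms, the 2 nearest profiles of each, and the marker lists. The members and lists were chosen with earlier results of these data known. The alternatives changed the normalization, intensity, floor, probe summary, test, block and rats. The quantitative PCR and enrichment of the study were not analysed here.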

Additional observations from a re-analysis of the deposited data

How the results depend on the processing

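The comparison was repeated under 21 alternatives, of which 1, scaling by the median of the detected microRNAs, was chosen after seeing the data. Of 105 member differences 1 passed the cutoff of 0.025, that of miR-23b-3p without rat 1 (0.25 on the log2 scale). The differences were near 0, and several changed sign, for which the cause was not tested. Without normalization between arrays they were 0.55 for miR-23a-3p and 0.38 for miR-24-3p, with a member median of 0.44. For miR-23a-3p the difference was 0.13 under the 75th percentile of detected or of all microRNAs, 0.16 under median scaling, 0.10 in the authors' table, 0.046 with the median of spots and 0.0092 with outlier spots kept. For miR-27a-3p it was -0.011 and -0.0083 under the 75th percentile of detected and of all microRNAs, -0.019 with normexp on the median spot signal and -0.0029 in the authors' table. With the median of spots it was -0.20 for miR-23b-3p and -0.27 for miR-27b-3p, and 1 member had the same sign in all rats. With the brightest probe alone it was -0.090 for miR-27b-3p and 0.013 for miR-24-3p. The difference of miR-23a-3p minus that of miR-23b-3p, -0.20 after quantile normalization, was -0.025 without normalization and under each of the 3 scalings, -0.12 with normexp, -0.00094 in the authors' table, 0.24 with the median of spots and -0.13 with the brightest probe. For miR-27a-3p minus miR-27b-3p it was 0.28 with the median of spots. The miR-451-5p to miR-23a-3p ratio differed by 0.31 on quantile-normalized values (exact permutation test, two-sided p = 0.5). It differed by -0.19 in the authors' table and -0.18 with the brightest probe. In rats 1 and 2 the normalized value of miR-451-5p was 10.49 in both samples, so only miR-23a-3p could move the normalized ratio there. Leaving out each rat in turn gave -0.15 to 0.069 for miR-23a-3p, 0.080 to 0.25 for miR-23b-3p, -0.23 to 0.16 for miR-27a-3p, -0.15 to 0.17 for miR-27b-3p and -0.20 to 0.11 for miR-24-3p. Between 0 and 1 members were then called higher in arterial plasma, and 0 to 2 had the same sign in the remaining rats. Without the pairing by rat as a block the differences were -0.051, 0.15, 0.0055, 0.0072 and -0.061 for miR-23a-3p, miR-23b-3p, miR-27a-3p, miR-27b-3p and miR-24-3p as before. Each rat gave 1 arterial and 1 venous sample, so neither the block nor the choice of test can change these differences. The block changed no call. Signal over background limits miR-27b-3p most.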
